A study of Rattus norvegicus with 4 samples.

Results

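The genes described here are 8 leukocyte integrins and adhesion molecules, Itgam, Itgal, Itga4, Itgb1, Itgb2, Icam1, Pecam1 and Cd44, out of 16581 genes with a symbol on the array. They were found as the probes whose RefSeq accession belongs to 1 of these symbols, which gave 11 probes for the 8 genes. The RNA came from NR8383 cells, a rat alveolar macrophage line in which part of the cells attach and part float. The cells were at passage 20 and had been exposed to NiZnFe2O4, a mixed nickel, zinc and iron oxide, at 9.25 µg/mL for 4 h. The sample records also give 15% serum and a seeding time of 48 h. All 4 arrays, from 4 biological replicates, belong to this exposed group. Untreated cells, against which the study set the exposed ones, were not analysed here. The values therefore describe the exposed cells and the spread between replicates, and none shows an effect of the exposure.

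Integrins are cell surface receptors built from an alpha and a beta chain, and both chains are needed for either to reach the surface. In leukocytes the beta2 chain pairs with alphaL to form LFA-1 and with alphaM to form Mac-1, the complement receptor by which macrophages bind and engulf opsonised particles, while alpha4 with beta1 forms VLA-4. ICAM-1 is the ligand of LFA-1 and Mac-1 on other cells, PECAM-1 binds itself across cell contacts, and CD44 binds the matrix sugar hyaluronan.

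Of the 8 genes, 7 passed the background call on every array, a call that 38.7% of all genes with a symbol (6418 of 16581) pass. The same count of 7 was found with every probe of a gene required (33.2% of all genes), with 3 of 4 arrays enough (41.5%) and with the looser flag for spots positive and significant against background (50.9%). Neither of these looser rules could lower the count. The call, well above background, is the extraction software's own, made per spot. The exception was Itgal, which passed on no array. The signal is the processed spot intensity in linear units. A level is its log2 value minus the 75th percentile of log2 signals over all probes of the same array, so a level of 0 lies at that percentile. The percentile lay at 41.6, 32.7, 23.5 and 24.8 intensity units on replicates 1 to 4. Taking it over probes well above background instead moved the deviations by a median of 0.06, 0.05, -0.04 and -0.08 log2 units on replicates 1 to 4. Small deviations therefore depend on this choice. Each array held 58717 spots for rat transcripts, between 21812 and 24981 of them well above background and none saturated. The extraction software's quality result read ExtractionInRange for replicates 1 and 3 and ExtractionEvaluate for replicates 2 and 4. Which array was highest or lowest is to be read with this limit. Since each probe binds with its own strength, the genes are not ranked against each other.

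Of 12 macrophage markers 8 passed on every array, among them Cd68, Lyz2, Csf1r and Spi1, the gene of the macrophage transcription factor PU.1. Marco, Cd163 and Adgre1 passed on no array. The count was 1 of 6 measured granulocyte markers (Camp), 3 of 7 lymphocyte markers (Lck, Pax5 and Nkg7), 1 of 7 lung epithelium markers (Foxj1) and 3 of 8 fibroblast and endothelium markers (Dcn, Cdh5 and Vwf). As shares these were 66.7% of macrophage, 16.7% of granulocyte, 42.9% of lymphocyte, 14.3% of epithelium and 37.5% of fibroblast and endothelium markers, so the lymphocyte and the fibroblast and endothelium lists passed at about the 38.7% of all genes. In RNA from a whole culture, fewer cells with a transcript and less of it per cell cannot be told apart.

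**Figure D1:**
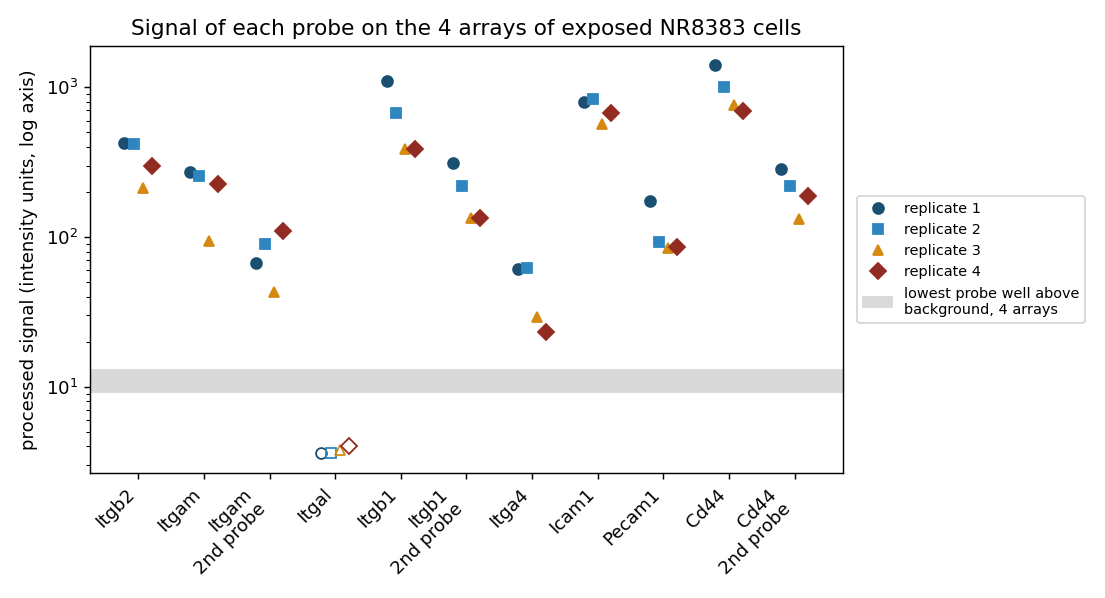
Processed signal (log axis, intensity units) of each of the 11 probes on each of the 4 arrays of exposed cells. Filled symbols were well above background and open ones were not, and the grey band spans the lowest signal of any probe well above background on the 4 arrays (9.23 to 13.0). The Itgal points lie between 3.59 and 4.00, below the band, and all other points lie above it.

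Among the leukocyte-specific integrin chains, the transcripts of both Mac-1 chains passed on every array and that of the LFA-1 alpha chain on none. Itgb2, which encodes the shared beta2 chain CD18, had signals of 427, 420, 214 and 297 on replicates 1 to 4. Its level averaged 3.45 ± 0.22 (SD, n = 4), with replicate 2 highest (replicate 1 without scaling) and replicate 3 lowest. The 4 levels spanned 1.41-fold.

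Itgam, which encodes the alphaM chain CD11b, had 2 probes. The brighter had signals of 272, 255, 93.7 and 225 on replicates 1 to 4, and its level averaged 2.71 ± 0.52 (SD, n = 4). Replicate 3 was lowest, and without it the SD was 0.24. The dimmer probe had signals of 66.8, 90.4, 42.8 and 109, and its level averaged 1.29 ± 0.66 (SD, n = 4). Both probes stood below their own mean on replicate 3, by -0.72 and -0.42, and above it on replicate 4, by 0.47 and 0.85. They parted on replicate 1, where the brighter probe deviated by -0.01 and the dimmer by -0.61. The SD of the brighter Itgam probe exceeded that of 95.0% of the 6418 genes well above background, the most of the 7 genes. Without scaling and with the normexp correction other members had larger SDs. The brighter Itgam probe was then highest on replicate 1 and replicate 2, respectively, and it was lowest on replicate 3 under every scaling run. The dimmer probe was lowest on replicate 1, except without scaling, where it was lowest on replicate 3.

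The Mac-1 chains can be read side by side. The brighter Itgam probe deviated from its mean by -0.01, 0.25, -0.72 and 0.47 on replicates 1 to 4, and Itgb2 by -0.10, 0.23, -0.27 and 0.13. Both were low on replicate 3 and above their mean on replicates 2 and 4, but on replicate 4 Itgb2 deviated by -0.14 without scaling and by -0.04 with the normexp correction. The dimmer Itgam probe had the same signs as the brighter one but was lowest on replicate 1, by -0.61. With 4 arrays no correlation was computed.

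Itgam is under the control of PU.1 in myeloid cells, as is known from its human promoter. The 250 bases before the annotated rat start are shown because 2 matches to a PU.1 box, GAGGAAG, lie in them on either strand. The sequence is RefSeq's, assembly GRCr8, chr1:192089342-192089591, plus strand, with the matches in capitals.
Itgam: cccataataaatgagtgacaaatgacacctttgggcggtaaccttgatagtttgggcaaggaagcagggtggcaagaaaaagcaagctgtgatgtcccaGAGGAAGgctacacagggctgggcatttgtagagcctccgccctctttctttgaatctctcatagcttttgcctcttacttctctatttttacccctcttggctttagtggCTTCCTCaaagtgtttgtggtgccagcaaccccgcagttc
The matches begin 151 and 40 bases before the start, the second on the reverse strand. At least 1 match was found in 10.2% of 33469 windows of the same length, and the share with 2 matches was not counted. A match is a run of letters and was not tested as a binding site.

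Itgal, which encodes the alphaL chain CD11a, had 1 probe in 1 spot, with signals of 3.59, 3.62, 3.76 and 4.00. The lowest signal of any probe well above background was 9.23, 11.7, 13.0 and 9.79 on replicates 1 to 4, so Itgal lay below it on every array. Its background-subtracted signal was below 0 on replicates 2 and 3. Values at this floor have no order, and Itgal is given no level. Spots around it, within 10 rows and columns, had median deviations between -0.09 and 0.17 log2 units from the other arrays.

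Itgb1 and Itga4 encode the chains of VLA-4, a receptor for fibronectin and VCAM-1. Itgb1 pairs with many alpha chains and is made by most cell types. Its main probe is printed in 10 spots, so the spread between spots of 1 array can be measured. It holds spot noise only, not the error of labelling, hybridization or scaling. The mean signal was 1105, 676, 388 and 388 on replicates 1 to 4, and the level averaged 4.28 ± 0.35 (SD, n = 4). The level was 4.73 on replicate 1 and 3.97 on replicate 4, a 1.69-fold span. Replicate 1 was highest under each of the 6 scalings and corrections run. Without it the SD was 0.21, and with all 4 arrays it was 0.54 with the normexp correction and 0.73 without scaling.

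Spots of the Itgb1 probe differed little within an array. Their pooled SD was 0.07 log2 units, and the SD between arrays, which holds the differences between cultures and every technical step, was 4.72 times as large at the scaling used. Among 974 probes printed in 10 spots and well above background on all arrays this ratio had a median of 2.14, and that of Itgb1 exceeded 92.6% of them. The other Itgb1 probe, in 2 spots, had mean signals of 313, 218, 133 and 135 and an SD of 0.21 (n = 4). Its deviations of 0.26, 0.09, -0.15 and -0.20 had the same sign on every array as those of the main probe, 0.45, 0.09, -0.23 and -0.31.

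On replicate 2, 2 of the 10 Itgb1 spots carried an outlier flag and were left out. They read 306 and 476, against 612 to 718 for the other 8 spots of that array, and so stood at 44.6% and 69.4% of the median of those 8. Their neighbours within 10 rows and columns were low too, with median deviations of -0.75 and -0.52 log2 units from the other 3 arrays. The same 2 spots read 1141 and 1187 on replicate 1, 411 and 391 on replicate 3, and 375 and 408 on replicate 4, where no spot of the probe carried the flag. Keeping them would have lowered the mean of replicate 2 by -0.17 log2 units.

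**Figure D2:**
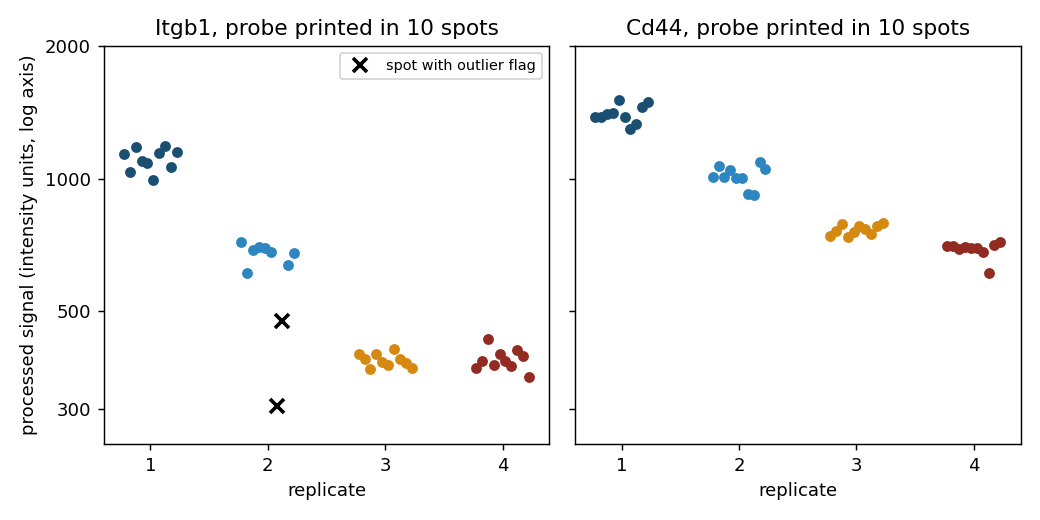
Processed signal (log axis, intensity units) of every spot of the Itgb1 and Cd44 probes printed in 10 spots, by replicate, before scaling between arrays. Crosses are the 2 Itgb1 spots with an outlier flag on replicate 2, at 306 and 476, below the other 8 spots of that array.

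The Itga4 probe read low signals on all arrays. They were 61.2, 62.5, 29.0 and 23.2 on replicates 1 to 4, and its level averaged 0.43 ± 0.43 (SD, n = 4). At this scaling replicates 1 and 2 stood above the mean and replicates 3 and 4 below it. Replicate 2 at 0.94 and replicate 4 at -0.09 differed 2.04-fold. The extraction software's own error was 11.6%, 11.5%, 16.6% and 19.1% of the signal, against 10.0% to 13.1% for the other probes that passed. The SD was 0.16 with the normexp background correction, which adds an offset to every signal and so compresses low values. Replicate 1 then stood below the mean, by -0.07.

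Icam1, which inflammatory signals induce through NF-kB, had signals of 802, 837, 564 and 672 on replicates 1 to 4. Its level averaged 4.57 ± 0.22 (SD, n = 4). Replicate 1 was lowest at 4.27, and the other 3 lay between 4.59 and 4.76. Without replicate 1 the SD was 0.09. Which array was lowest or highest depended on the scaling. The lowest was replicate 3 without scaling and with the normexp correction. The highest was replicate 4 here and with the local trend removed, and replicate 2 under the other 4 scalings and corrections.

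The 250 bases before the rat Icam1 start are shown because they hold a match to an NF-kB site, GGAAATTCC, and to a TATA box, TATAAA, searched on both strands. The sequence is RefSeq's, assembly GRCr8, chr8:27829595-27829844, plus strand, with the matches in capitals.
Icam1: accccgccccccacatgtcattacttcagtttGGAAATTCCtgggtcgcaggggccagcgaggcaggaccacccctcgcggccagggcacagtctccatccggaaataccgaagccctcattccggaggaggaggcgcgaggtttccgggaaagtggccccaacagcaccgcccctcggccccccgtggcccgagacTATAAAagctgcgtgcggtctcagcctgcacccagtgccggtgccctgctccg
The matches begin 218 and 53 bases before the start. The NF-kB letters were found in 0.287% and the TATA letters in 12.9% of the 33469 windows. The promoters of Itga4, Itgb1 and Cd44 held none of the 3 motifs in this window. Only these exact letters were searched, so other forms of the same sites would be missed. Windows were at hand for 5 of the 8 genes.

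Pecam1, the CD31 of leukocytes, platelets and endothelium, had signals of 174, 92.5, 84.5 and 85.8 on replicates 1 to 4. Its level averaged 1.80 ± 0.23 (SD, n = 4), highest on replicate 1 at 2.06 and lowest on replicate 2, though on replicate 3 without scaling and on replicate 4 with the normexp correction. Without replicate 2 the SD was 0.14. Of the endothelial markers, Vwf had signals between 947 and 1087 and Cdh5 between 21.2 and 42.9, while Kdr and Tek passed on no array. Their part in the Pecam1 signal was not tested.

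Cd44 had the smallest SD of the 7 genes at this scaling, though Icam1 had a smaller one with quantile normalization, without scaling and with the normexp correction, as did Itga4, Itgb2 and Pecam1 with the last of these. Without replicate 1 Icam1 had 0.09 and Cd44 0.11, and without replicate 2 Pecam1 had 0.142 and Cd44 0.145. Its probe in 10 spots had mean signals of 1402, 1012, 766 and 691 on replicates 1 to 4. The level averaged 4.96 ± 0.12 (SD, n = 4), and the 4 arrays spanned 1.21-fold. Its SD exceeded that of 13.8% of the 6418 genes. The spots of an array had a pooled SD of 0.07, so the SD between arrays was 1.82 times that within an array, below the median of 2.14 for such probes. Without replicate 4 the SD was 0.06, and with all 4 arrays it was 0.30 with the normexp correction and 0.46 without scaling. The other Cd44 probe, in 1 spot, had signals of 284, 218, 133 and 187. It deviated by 0.04, 0.01, -0.23 and 0.19, and only on replicate 1 did its sign match the main probe's 0.11, -0.01, 0.06 and -0.16. Replicate 4 was lowest with the main probe and highest with the other, though without scaling and with the normexp correction both were highest on replicate 1. Cd44 has many splice forms, and which of them each probe binds is not given in the sources used here.

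**Figure D3:**
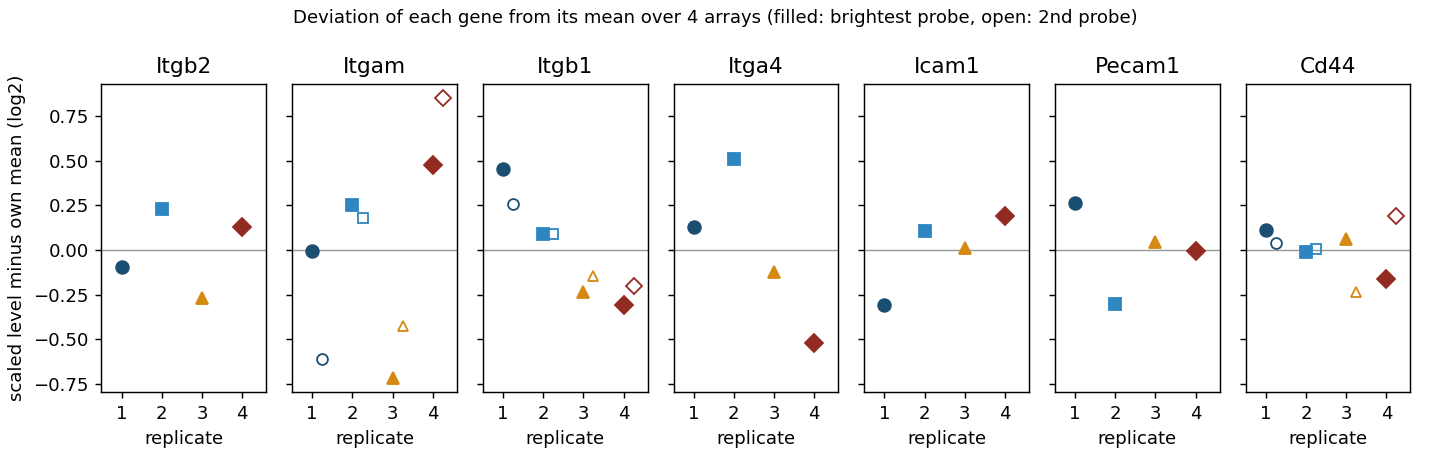
Level on each array of the 7 genes that passed the background call, minus the mean of that probe over the 4 arrays (log2 units). Filled symbols are the brightest probe and open symbols the other probe of Itgam, Itgb1 and Cd44. Itgam spans from -0.72 to 0.47 and Cd44 from -0.16 to 0.11 with the brightest probe.

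At the scaling used the 7 genes did not deviate as a block. After scaling, 4, 5, 3 and 3 of them stood above their own mean on replicates 1 to 4. The highest array was replicate 1 for 3 genes (Itgb1, Pecam1 and Cd44), replicate 2 for 2 (Itgb2 and Itga4) and replicate 4 for 2 (Itgam and Icam1), both of which had another highest array under some of the other scalings. Before scaling, 5 of the 7 were highest on replicate 1 and 5 were lowest on replicate 3, the arrays with the highest and the lowest 75th percentile. With the normexp correction all 7 stood below their mean on replicate 3. All but Itga4 then stood above it on replicate 1, and all but Pecam1 on replicate 2. At the scaling used, the median SD was 0.23 log2 units over the 7 genes. It was 0.23 over all 6418 genes well above background, whose 10th and 90th percentiles were 0.10 and 0.43. No member had an array set apart by Dixon's ratio, which 4.91% of those genes had. The SDs of the 7 genes ran between 0.12 for Cd44 and 0.52 for Itgam.

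**Figure D4:**
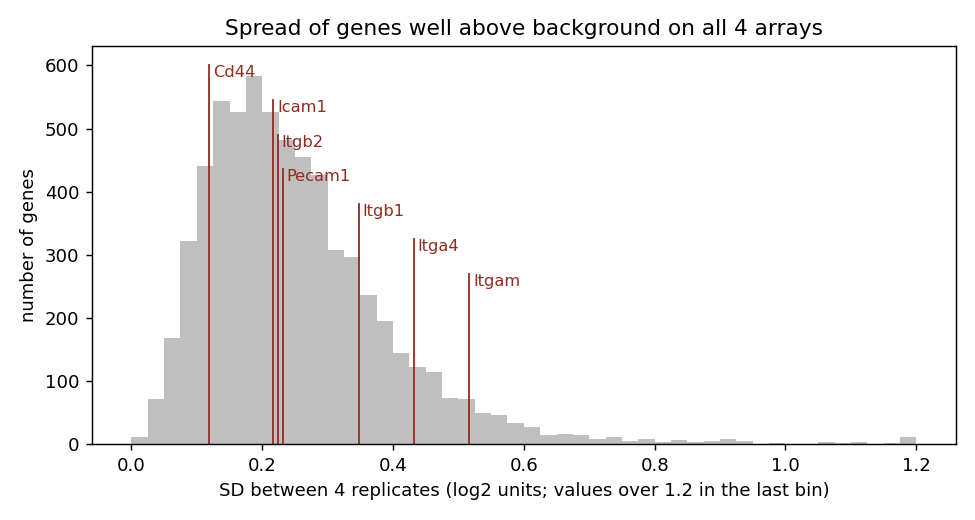
Number of genes by SD of the level between the 4 replicates (log2 units), for the 6418 genes well above background on all arrays, with the 7 genes marked by lines whose height has no meaning. Cd44 (0.12) lies at the low end and Itga4 (0.43) and Itgam (0.52) at the high end.

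The wider adhesion machinery was examined through 8 lists with 79 measured genes, of which 35 were well above background on all 4 arrays. These lists are read beside the 38.7% of all genes. Of the other integrin alpha chains 2 of 8 measured passed, Itga5 and Itga6, which pair with beta1 as receptors for fibronectin and laminin. Itga5 averaged 0.84 ± 0.19 and Itga6 0.17 ± 0.29 (SD, n = 4 each). Itgae passed on 2 arrays and Itgad on 1, while no probe matched the symbols Itgav, Itgax and Itga9.

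Of 5 other beta chains measured, Itgb3 and Itgb4 passed, and Itgb5, Itgb6 and Itgb7 passed on no array. Itgb3 lay close to background, with signals of 22.6, 19.3, 26.2 and 27.5 on replicates 1 to 4, and its second probe passed on no array. Of the 24 integrin receptors known in mammals, 13 had both chains measured. Both chains were well above background on all 4 arrays for 5 of them: alpha4beta1, alpha5beta1, alpha6beta1, alphaMbeta2 and alpha6beta4. The second Itga6 probe did not pass, and with every probe required the count was 3, without both alpha6 receptors. For LFA-1 and alphaDbeta2 the alpha chain did not pass on all arrays, and for alpha4beta7 the beta chain did not. The pairs share chains, with Itgb1 in 7 of the 13, and no share over all genes exists for pairs. Counted singly, 4 of 11 measured alpha chains and 4 of 7 measured beta chains passed, beside 38.7% of all genes. This list of pairs was drawn up after the values were seen, and transcripts of both chains do not show that the receptor is on the surface.

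Genes that switch integrins on and tie them to actin were mostly present, with 17 of 24 well above background. Tln1 encodes talin, which binds the beta tail and activates the receptor, and averaged 5.54 ± 0.07 (SD, n = 4). Fermt3, the kindlin of blood cells, averaged 3.39 ± 0.34 and Rap1b, the GTPase that recruits talin, 3.53 ± 0.13 (SD, n = 4 each). Apbb1ip, which encodes the Rap1 effector RIAM, averaged 4.29 ± 0.01 (SD, n = 4). Its signals were 819, 637, 455 and 484 on replicates 1 to 4, so this SD holds for the scaling used. It lies below the 0.07 between spots of the Itgb1 probe and does not show an unvarying gene. Vcl, the gene of vinculin, averaged 0.12 ± 0.08 (SD, n = 4). The list's SDs lay between 0.01 and 0.78.

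Tetraspanins, membrane proteins that associate with integrins, passed for 6 of 7 genes. Cd9 averaged 5.28 ± 0.31, Cd53 4.93 ± 0.16, Cd81 4.10 ± 0.17 and Cd151 4.18 ± 0.30 (SD, n = 4 each). The exception, Cd37, passed on no array.

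Of 11 other adhesion genes of the immunoglobulin superfamily 4 passed, Icam2, F11r, Alcam and Cd47. Cd47, a partner of integrins and a signal against engulfment, averaged 4.76 ± 0.04 (SD, n = 4). Its signals were 1096, 921, 628 and 680 on replicates 1 to 4, so this SD too holds for the scaling used. Icam2, another LFA-1 ligand, averaged -0.28 ± 0.37 and F11r, which encodes JAM-A, 2.10 ± 0.22 (SD, n = 4 each). Vcam1, which encodes the VLA-4 ligand of inflamed endothelium, passed on no array.

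The selectins and the matrix ligands were mostly not well above background. Of 7 selectin genes and ligands Glg1 passed, and Sele, Selp and Spn passed on no array. Of 7 matrix ligands Lgals3 passed, and Fn1 and Spp1, which encode fibronectin and osteopontin, passed on no array.

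Around CD44, 2 of 10 genes passed, Rdx and Hyal2. Rdx encodes radixin, which links CD44 and other receptors to actin, and averaged 2.01 ± 0.36 (SD, n = 4). Ezr, the gene of the related ezrin, passed on no array with either of its 2 probes. Msn, the gene of moesin, the member of this family that leukocytes mainly use, had signals of 47.9, 10.8, 29.9 and 64.0 and passed on all arrays but replicate 2. The neighbours of its spot deviated by a median of -1.12 log2 units on replicate 2, and those of the Itgae spot by -1.16.

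**Figure D5:**
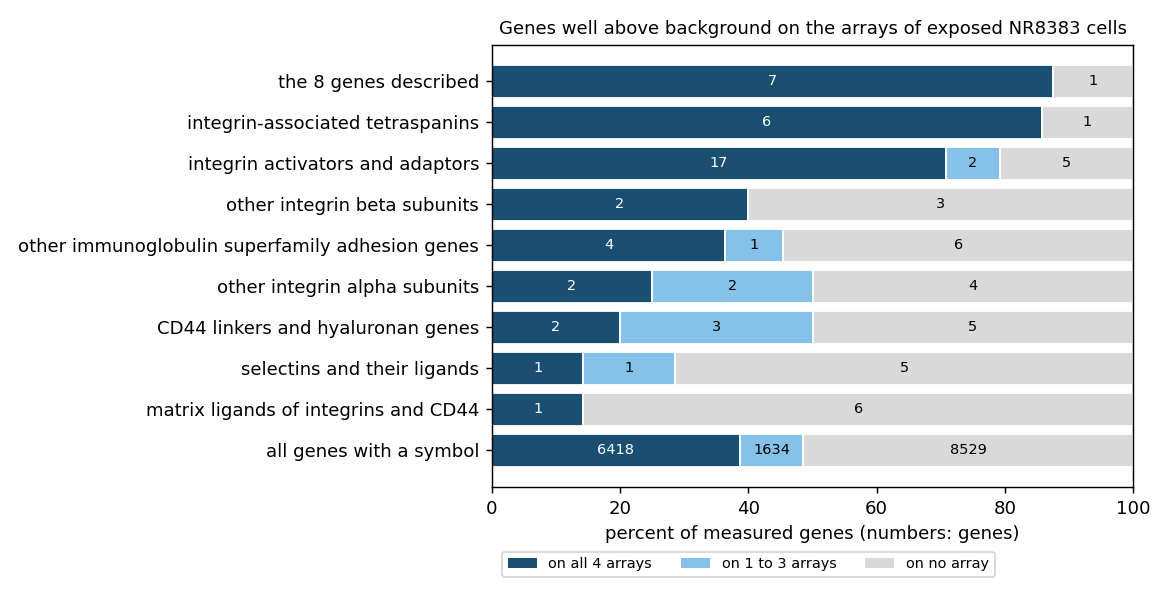
Percent of measured genes well above background on all 4 arrays, on 1 to 3 arrays and on no array, for the 8 genes described, each wider list and all genes with a symbol. Numbers in the bars are genes. The 8 genes (7 of 8) and the tetraspanins (6 of 7) have the highest shares, and the matrix ligands and the selectins (1 of 7 each) the lowest.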

How the data were processed

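Per the file headers and the submitters' processing notes, the authors extracted each one-colour Cy3 array with Agilent Feature Extraction 11.0.1.1. The deposited values are intensities per spot, corrected for background within each array and not scaled between arrays, with flags coded 0 or 1. All 4 arrays share 1 slide and 1 scan time. Control spots and spots with an outlier flag (491 to 828 per array) were left out here, and spots of a probe were averaged as log2 signals. A probe passed on an array where at least 0.5 of its spots did, and a gene passed if at least 1 probe did so on every array. Its level is that of its brightest probe. The files name accessions only: 21109 of 45598 probes matched 1 symbol in RefSeq (GRCr8), 24489 matched none and are unnamed here. The array design uses build rn4, so probes have no coordinates.

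With 1 group, no test between groups was made. The number of arrays limits precision. Members and lists were chosen with earlier results of these data known. Every member is named, and of the lists those that pair with, bind or anchor a member, and others where they spell out a count of 5 or fewer; 1 such gene is not reported here. The level and spread computations were tested on simulated data. Alternatives were other scalings, normexp background correction with limma 3.58.1 under R 4.3.3 (offset 50), subtraction of the trend among neighbouring spots within 10 rows and columns, other call rules, all probes of a gene, and leaving out each replicate. Python 3.11.15, numpy 2.4.6 and pandas 2.3.3 were used.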

Additional observations from a re-analysis of the deposited data

Results flagged for a closer look

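Of 61 values tested, 10 probes of the adhesion genes and the 51 other list and marker genes well above background on all arrays, 1 had an array whose gap to the next, as a share of the range, exceeded Dixon's 95% critical value for 4 samples. This was Parva, which encodes alpha-parvin, an adaptor between integrins and actin, with a ratio of 0.847. Its levels were 1.64, 1.72, 1.72 and 2.20 on replicates 1 to 4, with replicate 4 high. The quality result of replicate 4 read ExtractionEvaluate, and the neighbours of the Parva spot deviated there by a median of 0.11 log2 units. Over all 6418 genes well above background 315 (4.91%) exceeded the value, where chance gives about 1 in 20.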

How the results depend on the processing

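The count of 7 of the 8 genes well above background was the same under the 8 alternatives run for it: the looser flag for spots positive and significant against background (which 50.9% of all genes pass), 3 of 4 arrays, every probe of a gene, outlier spots kept and each replicate left out. The looser flag, 3 of 4 arrays and leaving out a replicate could only keep this count or add Itgal. Of the list counts, those of the other alpha chains and of the other beta chains were 1 when every probe had to pass, since the second probes of Itga6 and Itgb3 did not, and that of the selectins was 4 with the looser flag. The remaining list counts stayed within 1.5 times. Without scaling between arrays the median SD was 0.50 over the 7 genes and 0.38 over all genes well above background, and the shift of all probes between arrays is part of these values. Over all genes it was 0.43 without the filter on dim probes. Under the other alternatives, some added after seeing the data, both medians stayed within 1.5 times. Leaving out a replicate gave 0.21 to 0.28 over the 7 genes and 0.20 to 0.24 over all genes. No paired analysis was possible because the labels give 1 group. Low signals limit genes such as Itga4, Itga6, Itgb3, Itgb4, Icam2 and Vcl, and for Itgal, with 1 probe, a transcript the probe does not bind was not tested.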

Other observations

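In assembly GRCr8 the genes of 4 alpha chains that pair with beta2 lie on chromosome 1 in the order Itgal, Itgam, Itgax and Itgad. There are 33 protein-coding genes between Itgal and Itgam and 0 between Itgam, Itgax and Itgad. Of these neighbours Itgam was well above background on all 4 arrays and Itgal on no array. Itgad passed on replicate 1 only, with signals of 19.3, 5.59, 5.77 and 3.52 on replicates 1 to 4. No probe matched the symbol Itgax.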
